A study of Drosophila melanogaster with 6 samples.

Results

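Transcript levels of whole Drosophila melanogaster embryos that overexpressed grainy head (grh) were compared with those of wild type embryos, all aged to stage 16. The comparison used the arrays titled grh overexpression and wild type, 4 of the 6 arrays of the series, with 2 arrays in each group. The overexpression embryos had the genotype 69B>grh, in which 69B, a GAL4 driver line active in the embryonic ectoderm, drove the extra grh. The other altered genotype of the series was a grh mutant carrying the allele grhB37, and the wild type strain was w1118. No group carried the driver without extra grh, so a change brought by grh cannot be told apart from one brought by the driver or by strain background. The labels number the replicates without saying that they came from separately collected embryos, so each p-value reflects the spread between these arrays alone, and that spread may be technical. The labels describe the molecule as polyA RNA, while the extraction protocol describes total RNA reverse transcribed with random primers.

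Grainy head is a transcription factor of the epidermis, the outer cell sheet of the embryo, and its orthologues act in the skin of vertebrates. In the late fly embryo the epidermis secretes the cuticle, a layered armour of chitin fibres, structural proteins and lipids. Catecholamines made from tyrosine later crosslink this armour and colour it. Genes of these steps are the ones Grainy head is best known for, together with genes that answer wounding.

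Each array gave 1 log2 value per probe set, with a floor of 2.27 and a highest value of 14.1. A row stands for 1 gene, read by its brightest probe set, or for 1 probe set with no single gene name. A row was tested where no fewer than 2 of the 6 arrays reached 4 on the log2 scale, which gave 8632 rows, 7644 of them named genes. A group with both arrays under 4 is called dim here, and any fold against a dim group is a lower bound computed from the level of 4. Over the rows tested the array medians were 6.99 and 6.97 in grh overexpression embryos, 6.86 and 6.86 in grh mutant embryos, and 6.91 and 6.88 in wild type embryos. The median absolute difference between the arrays of a genotype was 0.066 for grh overexpression, 0.059 for the grh mutant and 0.07 for wild type. The 14 hybridisation control probe sets averaged 7.66 and 7.34 on the overexpression arrays, 6.99 and 6.76 on the mutant arrays, and 7.88 and 7.72 on the wild type arrays, so these spiked controls, which carry no embryo RNA, also differed between groups, and their part in the results was not tested.

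The grh transcript itself was read at 12.27 and 12.38 in overexpression embryos, against 7.36 and 7.45 in wild type embryos. Both overexpression arrays stood far above both wild type arrays, by 4.92 ± 0.05 on the log2 scale (SE), or 30.2-fold, with a limma adjusted p of 1.21e-14. In grh mutant embryos the same probe set read 9.05 and 9.02, above wild type, so its level does not report grh function in the mutant. A dimmer probe set for grh stayed under 4 on all 6 arrays.

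The contrast was broad. Of the 8632 rows, 6915 (80.1%) passed the test, an adjusted p under 0.05 by limma, with 3107 (36%) higher and 3808 (44.1%) lower in the overexpression embryos. The groups did not overlap in 89.6% of rows. Because a passed test was the usual outcome, the text below counts mainly genes that passed it and differed by at least 2-fold. There were 1846 such rows (21.4%), of which 1132 (13.1%) were higher and 714 (8.27%) lower in the overexpression embryos, and the median log2 fold change of all rows tested was -0.079. Among the higher rows, 766 were measured in both groups and 364 were dim in wild type. Of the lower rows, 566 were measured in both groups and 140 were dim in overexpression. Large differences leaned upward: among rows measured in both groups, 68 were at least 8-fold higher and 29 at least 8-fold lower in overexpression, and 14 against 2 rows differed by at least 32-fold. A total of 317 higher rows passed the filter on low values through the overexpression arrays alone, and 25 lower rows through the wild type arrays alone. The direction of these rows was fixed by the filter. Where such rows enter the count of a list below, the count or median without them is given too. Each list count below is to be read beside the shares of all rows given here.

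**Figure D1:**
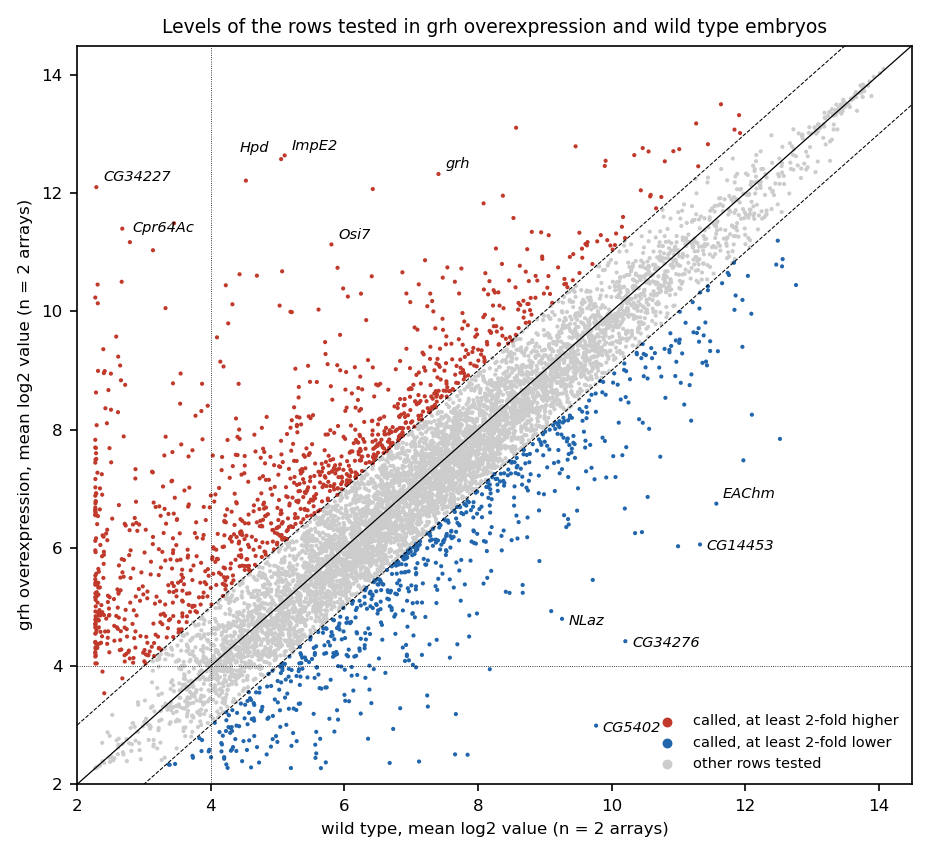
Mean log2 value of each row tested in grh overexpression embryos (vertical axis) against wild type embryos (horizontal axis), n = 2 arrays each. Red marks rows called and at least 2-fold higher (1132), blue rows called and at least 2-fold lower (714), grey the others; the solid line marks equal levels, dashed lines 2-fold, and dotted lines the level of 4 below which a group is dim. The vertical band of red points at the left edge holds genes at or near the floor in wild type.

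Genes that break down tyrosine, and the 1 tested gene of the tryptophan branch, were raised. Of 7 tested, 6 were at least 2-fold higher in overexpression embryos, against 13.1% of all rows, and none was lower, with a median log2 fold change of 2.24. Hpd, the dioxygenase that acts on 4-hydroxyphenylpyruvate, read 12.59 and 12.56 in overexpression embryos and 4.96 and 5.15 in wild type embryos. The difference of 7.52 ± 0.07 (184.1-fold, adjusted p 9.09e-15) was exceeded by CG2444 and ImpE2 alone among named genes measured in both groups. The next enzyme, homogentisate dioxygenase, is encoded by hgo, which read 10.49 and 10.39 against 4.38 and 4.07 in wild type, 74.4-fold higher. Downstream come the maleylacetoacetate isomerases GstZ1 and GstZ2 and the fumarylacetoacetase Faa. Their arrays were separate in each case, with increases of 1.71 for GstZ1, 1.19 for GstZ2 and 2.24 for Faa. KFase, the formamidase of the tryptophan branch, read 9.76 and 9.69 in overexpression and 7.09 and 7.02 in wild type, an increase of 2.68. Tat, the aminotransferase at the head of the tyrosine branch, read 4.23 and 4.35 in overexpression and 4.20 and 4.15 in wild type, and did not pass the test (log2 fold change 0.12, adjusted p 0.211).

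Enzymes that turn tyrosine into catecholamines and tan the cuticle were mixed. Of 8 tested, 6 were higher, 3 of them at least 2-fold, 1 was lower and 1 did not pass, with a median of 0.69. The probe set of ple, which encodes tyrosine hydroxylase, lay at 2.38 on all arrays and was not tested. Pu, the GTP cyclohydrolase that supplies the cofactor of tyrosine hydroxylase, read 9.52 and 9.63 in overexpression and 7.52 and 7.53 in wild type, 4.14-fold higher. Ddc, dopa decarboxylase, read 10.63 and 10.60 in overexpression and 10.25 and 10.21 in wild type. This difference of 0.39 ± 0.04 was small but larger than the spread of the arrays (adjusted p 3.62e-06). Its relative amd, which also acts in the cuticle, rose more, by 1.53. The ebony gene e, whose product joins dopamine to beta-alanine, read 8.47 and 8.55 in overexpression and 5.81 and 5.83 in wild type, 6.44-fold higher. The opposite reaction is catalysed by the product of tan, t, and this gene went the other way, at 5.22 and 5.41 in overexpression against 6.82 and 7.08 in wild type, and fell by 1.64. The laccase gene stw, whose product oxidises catecholamines in the cuticle, rose by 0.99, and speck, an arylalkylamine acetyltransferase gene, by 0.22.

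The yellow family of 13 genes on the array encodes secreted proteins of pigmentation and melanin chemistry. Of 8 members tested, 4 were at least 2-fold higher and 2 at least 2-fold lower. The founding gene y was among the lower ones, reading 6.74 and 6.53 in overexpression and 8.93 and 8.90 in wild type, and fell by 2.28. The related gene yellow-h fell by 1.31. The largest increase belonged to yellow-d2, at 10.12 and 10.05 in overexpression against 7.36 and 7.12 in wild type, 7.19-fold. Dopachrome conversion, a step of melanin formation, is the known activity of yellow-f2, which rose by 1.51, while yellow-e2 rose by 1.82. The remaining 2 tested members rose by less than 2-fold.

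Chitin is polymerised at the apical membrane by the chitin synthase kkv from sugar made by the hexosamine pathway. Of 8 tested genes of chitin synthesis, 3 were at least 2-fold higher, 1 at least 2-fold lower, and 3 fell by less than 2-fold, with a median of -0.12. The synthase gene kkv read 10.55 and 10.54 in overexpression and 9.30 and 9.29 in wild type, 2.38-fold higher. The gene knk, whose product organises and protects new chitin, read 8.76 and 8.79 in overexpression and 6.51 and 6.56 in wild type, 4.72-fold higher. Within the hexosamine pathway the enzymes parted. Gnpnat, the acetyltransferase, was 3.91-fold higher, whereas the first enzyme gene Gfat1 fell by 0.21 and the last one, mmy, fell by 0.54. The gene reb, which acts with kkv in chitin deposition, read 6.96 and 6.73 in overexpression and 8.19 and 8.12 in wild type, and fell by 1.31.

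Enzymes that cut or modify chitin were higher more often than lower. Of 19 tested, 13 were higher and 3 lower, 6 at least 2-fold higher and 1 at least 2-fold lower. Without the 3 that entered the test through the overexpression arrays alone, 10 were higher and 3 lower, 5 and 1 of them at least 2-fold. The chitinase genes of moulting led the list: Cht5 read 10.09 and 10.10 in overexpression and 5.09 and 4.97 in wild type, 33.6-fold higher, and Cht10 read 7.58 and 7.56 against 4.35 and 4.45 in wild type, higher by 3.17 on the log2 scale. Cht2 was 4.42-fold higher. Other chitinases were lower, namely Cht7 by a log2 fold change of -0.74 and Cht6 by -0.81. The deacetylase gene serp, which shapes the chitin of the tracheal lumen, rose by 0.26, and its partner verm read 12.29 and 12.24 in overexpression and 12.35 and 12.29 in wild type and did not pass (adjusted p 0.182). Among the chitinase-like growth factors, Idgf3 rose by 1.38 and Idgf5 fell by 1.51.

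Osiris genes encode membrane proteins of insects that sit for the most part in 1 chromosomal cluster and are active when cuticle forms. Of 23 on the array 15 were tested, and 12 of these were at least 2-fold higher and none was lower, with a median of 2.12. The direction of 4 of the 12 was fixed by the filter, and without them 8 of 11 were at least 2-fold higher, with a median of 1.78. Osi12 read 10.13 and 10.11 in overexpression and 4.22 and 4.42 in wild type, 55.6-fold higher. Osi7 read 11.19 and 11.07 against 5.86 and 5.75 in wild type, 40.2-fold higher, and Osi24 was 8.26-fold higher. The 3 smallest differences were those of Osi20, Osi15 and Osi18: Osi20 rose by 0.77, Osi15 by 0.27, and Osi18, reading 10.48 and 10.38 in overexpression and 10.42 and 10.29 in wild type, did not pass (adjusted p 0.182).

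Zona pellucida domain proteins of the apical matrix and actin regulators shape the denticles, the hooks of the larval skin. Of 15 tested, 9 were at least 2-fold higher and 1 at least 2-fold lower, with a median of 1.63, and without the 3 of these 9 that were fixed by the filter the median was 0.90. The matrix gene dyl read 10.79 and 10.51 in overexpression and 8.20 and 8.02 in wild type, 5.80-fold higher. Its family member mey read 8.76 and 8.59 against 5.99 and 6.04 in wild type, 6.32-fold higher. The gene tyn read 7.13 and 7.14 in overexpression and was dim in wild type at 3.20 and 3.64, so it was at least 8.78-fold higher. On the actin side, the bundling protein genes f and sn rose by 1.63 and 1.12, and mwh, which limits actin protrusions, was at least 3.48-fold higher. Another zona pellucida gene, zye, read 4.18 and 4.07 in overexpression and 6.59 and 6.44 in wild type, and fell by 2.39, and pot, which anchors the epidermis to its cuticle, fell by 0.55.

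Structural cuticle proteins moved in both directions at once. Among 44 tested genes named Cpr, of 66 on the array, whose proteins carry a chitin-binding consensus, 13 were at least 2-fold higher and 16 at least 2-fold lower, and without the members fixed by the filter the counts were 7 and 15. Cpr66Cb read 12.82 and 12.77 in overexpression and 9.54 and 9.39 in wild type, 10.1-fold higher. Cpr47Eb rose 13.6-fold, with 9.51 and 9.45 against 5.79 and 5.63 in wild type. The largest measured fall was that of Cpr78Cb, at 6.89 and 6.83 in overexpression and 10.58 and 10.50 in wild type, 12.8-fold lower. Close behind were Cpr49Ag and Cpr50Cb, 9.85-fold and 8.85-fold lower. Cpr64Ac read 11.41 and 11.39 in overexpression and was dim in wild type, at 2.64 and 2.71, and it was at least 169-fold higher, but it entered the test through the overexpression arrays alone.

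The Tweedle family, a further group of insect cuticle proteins, gave 3 members at least 2-fold higher and 7 at least 2-fold lower of 23 tested, with a median of -0.48. TwdlT read 12.57 and 12.52 in overexpression and 9.93 and 9.90 in wild type, 6.22-fold higher, and TwdlP was 4.91-fold higher. TwdlQ read 6.73 and 6.59 against 10.26 and 10.14 in wild type, 11.6-fold lower, and TwdlX was 6.64-fold lower. Of 13 tested genes named as larval, adult or pupal cuticle proteins or as Edg genes, which answer ecdysone, 9 were at least 2-fold lower and 3 at least 2-fold higher, with a median of -1.42. Lcp65Af was the lowest, with 6.21 and 6.32 in overexpression and 10.49 and 10.42 in wild type, 18.3-fold lower. The Edg genes split, since Edg91 read 10.34 and 10.26 in overexpression and 7.74 and 7.70 in wild type, a rise by 2.59, while Edg78E was at least 2-fold lower with a log2 fold change of -1.24. Without members fixed by the filter, the counts of genes at least 2-fold higher and lower were 2 and 7 for Tweedle genes and 1 and 8 for this last group, and the medians -0.71 for Cpr genes, -0.67 for Tweedle genes and -1.56 for the last group, so each of the cuticle protein groups held changes in both directions.

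**Figure D2:**
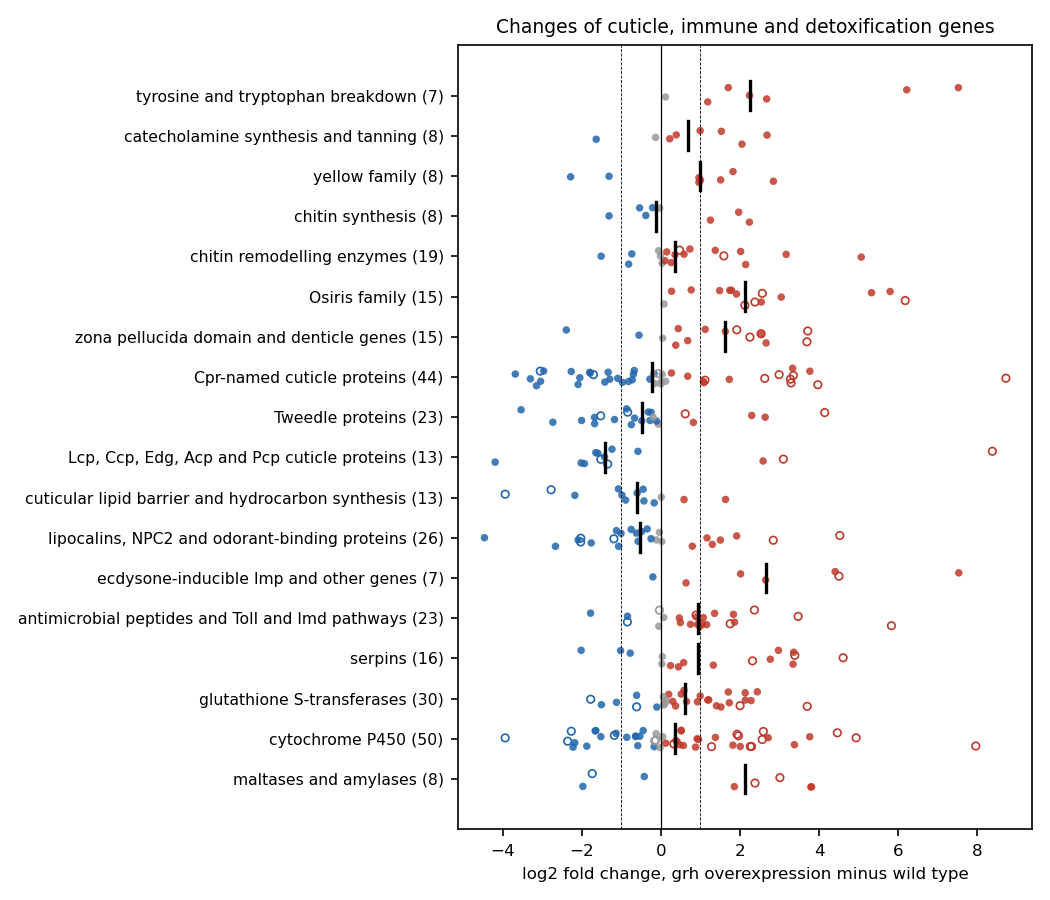
Log2 fold change, grh overexpression minus wild type, of each tested gene in 18 lists of cuticle, immune and detoxification genes, with the number tested in brackets. Red points passed the test and were higher, blue points passed and were lower, grey points did not pass, open circles mark genes dim in a group, black bars mark medians, and dashed lines mark 2-fold; Osiris genes lie almost wholly to the right and the cuticle protein families on both sides.

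Some neighbours on a chromosome changed together. Runs of at least 4 consecutive tested genes, all passing the test and at least 2-fold changed in the same direction, numbered 18 over the genome, in a comparison where 21.4% of all rows changed that far. How many such runs unrelated changes would give was not tested. Of the 18, 9 held at least 1 gene fixed by the filter, and the count was 9 with a log2 minimum of 6 and 13 with no filter. The longest covered 13 genes on arm 3R and held the Osiris genes Osi1, Osi24, Osi2, Osi3, Osi5, Osi6, Osi7, Osi9, Osi12 and Osi14, together with CG31559, CG15597 and NPFR, which encodes a neuropeptide F receptor. All 13 were higher, with log2 fold changes of 1.47 to 6.18 and a median of 2.54, and the direction of 4 was fixed by the filter. NPFR read 7.24 and 7.13 in overexpression and 5.82 and 5.61 in wild type. A run of 8 cuticle protein genes on arm 3L, Cpr65Au to Acp65Aa, was lower throughout, with log2 fold changes of -4.19 to -1.35, and 2 of the 8 were fixed by the filter. A second run of 8 on the same arm, CG4962 to CG13059, was lower with a median of -1.96, and a run of 7 on arm 2R, CG15611 to CG10953, was lower with a median of -2.49. On arm 2R a run of 6 Bom genes, which encode short secreted peptides induced by Toll signalling, was higher, though 4 of them were fixed by the filter. Among the shorter runs, Cyp4ad1, Cyp4e2, Cyp4e1 and Mal-A1 were higher, and CG18581, CG12310, CG18649 and EAChm lower with a median of -4.66.

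**Figure D3:**
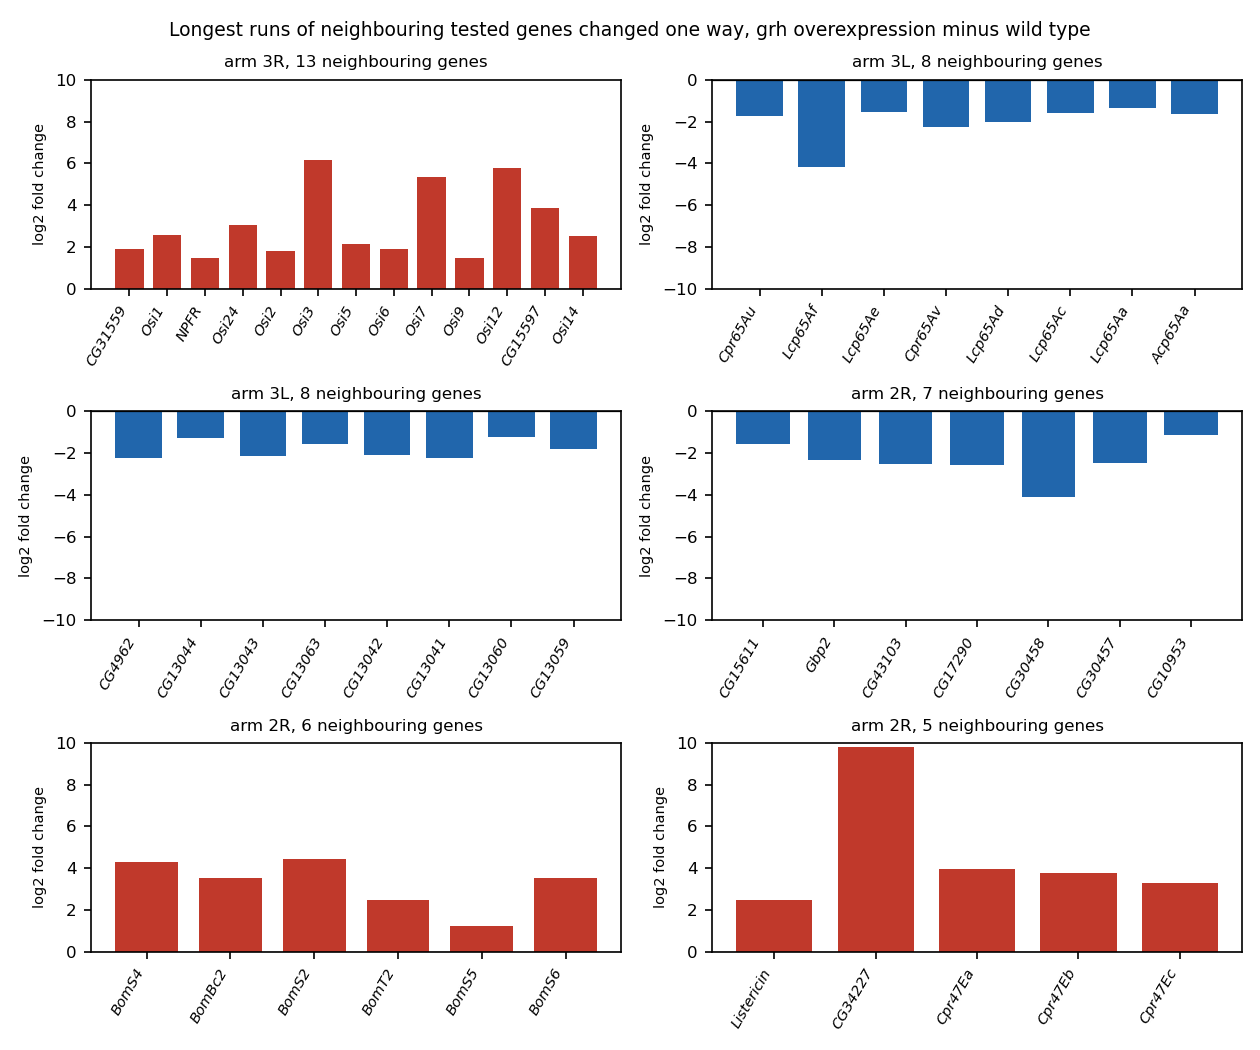
Log2 fold change, grh overexpression minus wild type (vertical axis), of the genes in the 6 longest runs of neighbouring tested genes that changed by at least 2-fold the same way, in their order on the chromosome arm. Red bars are higher and blue bars lower in overexpression; the run on 3R that holds the Osiris cluster spans 13 genes.

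Genes listed for the lipid barrier of the cuticle and for hydrocarbon synthesis were mostly lower. Of 13 tested, 10 fell, 4 of them by at least 2-fold, and 2 rose, with a median of -0.60. Of all rows, 44.1% fell, 8.27% by at least 2-fold, and 36% rose. Cyp4g1, which makes hydrocarbons in the oenocytes, cells beneath the epidermis, read 6.45 and 6.42 in overexpression and 8.67 and 8.55 in wild type, 4.52-fold lower. Its relative Cyp4g15 was dim in overexpression at 3.43 and 3.19 and read 7.33 and 7.17 in wild type, at least 9.51-fold lower. The fatty acid synthase genes parted, since FASN3 was at least 5.19-fold lower and FASN1 read 8.78 and 8.78 in overexpression and 7.18 and 7.10 in wild type, 3.11-fold higher. ACC, which supplies the synthases with malonyl-CoA, rose by 0.59. The reductase gene wat fell by 0.98 and the lipid transporter gene snu by 0.60. Because whole embryos were measured, fewer cells of a type and less RNA per cell cannot be told apart, here and in every later paragraph.

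Small carriers of lipids and odorants, the lipocalins, NPC2 and odorant-binding proteins, leaned the same way, with 16 of 26 tested lower and 7 higher and a median of -0.53. At least 2-fold lower were 10 and at least 2-fold higher 6, or 8 and 4 of 22 without members fixed by the filter. Of all rows, 8.27% were at least 2-fold lower and 13.1% at least 2-fold higher. NLaz, a lipocalin of neurons and fat body, read 4.92 and 4.68 in overexpression and 9.29 and 9.23 in wild type, with a log2 fold change of -4.46, and the glial lipocalin GLaz was 4.27-fold lower. Obp44a read 8.46 and 8.39 against 11.11 and 11.07 in wild type, 6.35-fold lower. In the other direction, Obp56d was 3.78-fold and Obp99a 2.84-fold higher.

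Imp genes, known as inducible by ecdysone, the moulting hormone, were raised while the hormone's receptor and response factors were not. Of 7 tested Imp and other inducible genes, 5 were at least 2-fold higher, all of them Imp genes, and none at least 2-fold lower. The median was 2.65, and 2.33 without the 1 of these that was fixed by the filter. Of the same 7 genes, 3 were at least 2-fold higher in the mutant too, against 10.8% of all rows, with a median of 0.96 there. ImpE2, which encodes an apical protein of the imaginal discs, read 12.67 and 12.61 in overexpression and 5.14 and 5.07 in wild type, 185.4-fold higher. ImpL1 averaged 10.39 ± 0.07 in overexpression and 5.98 ± 0.03 in wild type (SD, n = 2 each), 21.2-fold higher. ImpL2, whose secreted product binds insulin-like peptides, was 4.05-fold higher, and ImpE1 was 6.28-fold higher. Of 7 receptors and response factors, 5 fell by less than 2-fold and none rose, where 44.1% of all rows fell. Among the 5, Hr39 did not pass with quantile normalization (limma adjusted p 0.0638) or with no filter (limma adjusted p 0.162). With only the 4 arrays of the 2 groups it did not pass either (limma adjusted p 0.0622). Its log2 fold change was -0.10 without overexpression replicate 1 and -0.09 without wild type replicate 2. Eip78C did not pass with only the 4 arrays (limma adjusted p 0.0502) or with no filter (limma adjusted p 0.0532). EcR, the receptor, read 6.64 and 6.85 in overexpression and 7.24 and 7.44 in wild type (log2 fold change -0.60), and br, an early response factor, fell by 0.55. The nuclear receptor gene ftz-f1 had a log2 fold change of -0.51, which turned to 0.28 when the probe sets of a gene were averaged and did not pass without overexpression replicate 1 (adjusted p 0.1) or with no filter (adjusted p 0.0685). All 4 tested moulting and eclosion peptides were lower, among them ETH, the trigger of moulting behaviour, with 4.72 and 4.61 in overexpression and 7.01 and 6.87 in wild type, and fell by 2.28.

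Innate immune genes were higher more often than lower, and the protease and prophenoloxidase cascade was split. By at least 2-fold, 13.1% of all rows were higher and 8.27% lower. Of 10 tested cascade genes 5 were at least 2-fold higher, 4 of them not fixed by the filter, 2 at least 2-fold lower, and 3 did not pass, with a median of 0.77, or 0.04 without the fixed gene. SPE, which cleaves the Toll ligand, read 10.61 and 10.58 in overexpression and 6.40 and 6.42 in wild type, 18.2-fold higher. Upstream of it, grass read 9.12 and 9.06 against 5.84 and 5.95 in wild type, 9.17-fold higher. A second upstream protease, psh, was 7.39-fold higher, but it entered the test through the overexpression arrays alone. The ligand gene spz was 2.23-fold higher, the receptor gene Tl 2.07-fold, and the kinase gene pll 3.64-fold, and cact, the inhibitor that Toll signalling removes, rose by 0.75. Rel, the transcription factor of the parallel Imd pathway, rose by 0.90. Of the 23 tested antimicrobial peptide, recognition and pathway genes as a whole, 10 were at least 2-fold higher and 1 at least 2-fold lower, with a median of 0.93. Without the members fixed by the filter, 7 were at least 2-fold higher and 1 lower of 18, with a median of 0.91. Drs, an antifungal peptide gene, read 6.74 and 6.66 in overexpression and was dim in wild type at 3.42 and 3.03, which gives a difference of at least 6.50-fold. Its relative Drsl5 was lower, at 7.06 and 6.88 in overexpression against 8.82 and 8.68 in wild type, 3.43-fold lower. BomS2 read 9.96 and 10.11 against 5.63 and 5.60 in wild type, 21.4-fold higher. The prophenoloxidases of blood cells, PPO1 and PPO2, were 3.02-fold and 2.90-fold lower.

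Serpins, the inhibitors of such proteases, were likewise higher more often than lower. Of 16 tested, 8 were at least 2-fold higher and 2 at least 2-fold lower, against 13.1% and 8.27% of all rows. The median was 0.95. Without the 3 fixed by the filter, 5 and 2 of 13 were, with a median of 0.45. Spn42De, Spn100A and Spn42Da were 10.3-fold, 10.2-fold and 7.86-fold higher. Spn28Dc, which restrains melanisation, read 8.08 and 8.03 in overexpression and 5.40 and 5.17 in wild type, and nec, which restrains the Toll cascade, rose by 1.83. Spn31A was 4.04-fold lower.

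Detoxification enzymes moved in both directions, where 13.1% of all rows were at least 2-fold higher and 8.27% at least 2-fold lower. Of 30 tested glutathione S-transferases, which conjugate toxic compounds, 12 were at least 2-fold higher and 3 at least 2-fold lower, with a median of 0.62, and without members fixed by the filter the counts were 10 and 2. GstD1 read 12.78 and 12.71 in overexpression and 11.05 and 10.98 in wild type, 3.32-fold higher, and GstE11 was 4.86-fold higher. In the same gene group, GstE10 was 2.84-fold lower. Of 50 cytochrome P450 genes, 16 were at least 2-fold higher and 11 at least 2-fold lower. Without members fixed by the filter the counts were 7 and 10 of 40 and the median -0.07, against 0.35 with them. Cyp305a1 was 13.6-fold and Cyp4e2 10.4-fold higher, while Cyp4aa1 was 4.66-fold lower. Of the 4 tested sulfotransferases, St2 read 10.64 and 10.62 in overexpression and 4.40 and 4.46 in wild type, 73.4-fold higher. Among 8 tested maltases and amylases, sugar-cleaving enzymes of the gut and other tissues, 5 were at least 2-fold higher and 2 at least 2-fold lower, with 1 of each fixed by the filter. Mal-A3 read 10.67 and 10.65 against 6.91 and 6.82 in wild type, 13.9-fold higher, and Mal-A5 was 3.92-fold lower. The peroxiredoxin gene Prx6c, whose product removes peroxides, rose by 3.58.

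Genes of cell division were raised. Of 16 tested mitosis genes and cyclins, 13 were at least 2-fold higher, none was lower and 2 did not pass, with a median of 1.63, and without the 2 fixed by the filter 11 of 14 were at least 2-fold higher, with the same median. The securin gene pim, whose product holds back the separation of chromatids, read 8.99 and 9.11 in overexpression and 6.47 and 6.38 in wild type, 6.17-fold higher. CycB, a mitotic cyclin, read 10.87 and 10.91 against 9.02 and 8.91 in wild type, 3.80-fold higher, and CycB3 was 4.16-fold higher. The cytokinesis regulator tum, the anaphase activator fzy and the chromosomal passenger gene Incenp were 4.76-fold, 3.56-fold and 3.17-fold higher. CycE, which drives entry into S phase, read 5.63 and 5.88 in overexpression and 5.78 and 5.86 in wild type, and fzr, which ends the mitotic programme, read 6.30 and 6.38 against 6.40 and 6.53 in wild type. Neither passed the test (adjusted p 0.509 for CycE and 0.123 for fzr).

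DNA replication genes did not move as a body. Of 23 tested, 10 rose and 8 fell, with a median of 0.09, or 9 and 6 of 20 with a median of 0.13 without members fixed by the filter. The 5 that rose at least 2-fold included the licensing factors dup, at 4.61-fold, and Cdc6, at 2.87-fold, and Mcm10, at 3.55-fold. Of 18 nuclear pore genes 14 rose and 2 fell, with a median of 0.52, led by Nup358 at 2.69-fold and Nup93-1 at 2.62-fold, while Nup37 fell by 0.91. Among 11 tested histone and chromatin genes, 7 rose, 6 of them at least 2-fold, or 6 and 5 of 10 without the 1 fixed by the filter. They included the histone variant His2Av, which read 11.23 and 11.25 in overexpression and 10.23 and 10.17 in wild type.

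Some transcripts that mothers load into the egg were also higher in overexpression. bcd, the anterior determinant, read 8.32 and 8.38 in overexpression and 6.27 and 6.22 in wild type, 4.29-fold higher, and swa, which localises bcd RNA in the egg, was 3.99-fold higher. Of 9 tested germline and maternal genes 8 were higher and 1 lower, but 2 were fixed by the filter. Over the other 7, of which 6 were higher and 1 lower, the mean level was 7.63 and 7.65 in overexpression arrays, 6.36 and 6.33 in mutant arrays, and 6.88 and 6.87 in wild type arrays. In overexpression these transcripts rose as the mitosis genes did, and their part in that result was not tested. In the mutant, 3 of all 9 genes were higher and 3 lower than wild type, with a median of 0.08. The mean level of the 7 genes not fixed by the filter was lower in mutant than in wild type arrays. The mitosis genes had a median of -1.32 in the mutant, and whether the 2 lists moved together there was not tested.

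Mitochondrial genes fell together by small amounts. Of 71 tested mitochondrial ribosomal protein genes, 67 were lower and 1 was higher, with a median of -0.61, against -0.079 for all rows, and 4 passed 2-fold. This last count was 7 without overexpression replicate 1 or without wild type replicate 2, and 8 with each array centred on its median. The largest falls were those of mRpS6, which averaged 6.70 ± 0.10 in overexpression and 8.05 ± 0.08 in wild type (SD, n = 2 each, 2.56-fold lower), and mRpS31, 2.21-fold lower. The 1 that rose was mRpS17, by 0.30. Of 53 genes of the respiratory chain and ATP synthase, 52 were lower and none was higher, with a median of -0.43. Within it, all 25 tested genes of complex I fell (median -0.57), as did all 10 of ATP synthase (median -0.30) and all 7 named for cytochrome c oxidase (median -0.35). SdhB, a subunit of succinate dehydrogenase, read 8.94 and 8.82 in overexpression and 9.88 and 9.83 in wild type, the largest fall of the list at 0.97. Mitochondrial aminoacyl-tRNA synthetases gave 11 lower and 1 higher of 13 tested, while the other 15 synthetases gave 5 lower and 6 higher.

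Genes of central carbon metabolism were mostly lower too. Of 11 citric acid cycle genes, 10 fell and 1 rose. The mitochondrial subunit gene Idh3b read 8.26 and 8.13 in overexpression and 9.54 and 9.71 in wild type, 2.70-fold lower, whereas Idh, the NADP-dependent enzyme, read 11.59 and 11.61 against 10.21 and 10.14 in wild type, 2.69-fold higher. Of 10 glycolytic genes 9 fell, among them Gapdh1 (3.54-fold lower) and Pgk (2.11-fold lower). The Gapdh control probe sets of the array read 11.49 and 11.59 in overexpression and 12.20 and 12.19 in wild type at the 3' end, and 10.39 and 10.37 in overexpression and 11.27 and 11.15 in wild type at the 5' end, so both ends were lower. Of 9 genes of sugar synthesis, trehalose and glycogen 3 rose and 4 fell: Pepck2 was 6.66-fold higher and fbp, which encodes fructose-1,6-bisphosphatase, 2.89-fold higher. The trehalose transporter gene Tret1-1 fell by 1.65. Of 20 genes of the vacuolar proton pump, which acidifies organelles, 18 fell, with a median of -0.59. Vha100-4 read 6.37 and 6.32 in overexpression and 8.23 and 8.18 in wild type, 3.62-fold lower.

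Genes of cytosolic protein synthesis, turnover and secretion had medians near 0. Of 34 tested cytosolic ribosomal protein genes, 23 did not pass the test, 7 rose and 4 fell, and the median was 0.02. The largest change was that of RpS5b, a ribosomal gene of the germline, which averaged 11.14 in overexpression and 12.01 in wild type (n = 2 each). Proteasome genes had a median of 0.05, with 12 higher and 8 lower of 26. Of 12 genes of its core 10 rose and none fell, while of 14 genes of its cap 2 rose and 8 fell, a difference that was not tested. Secretory pathway genes had a median of 0.04, with 16 higher and 12 lower of 42. When each array was centred on its own median, these medians became -0.07 for ribosomal proteins, -0.04 for the proteasome and -0.04 for secretion, so no direction can be given for the 3 lists.

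**Figure D4:**
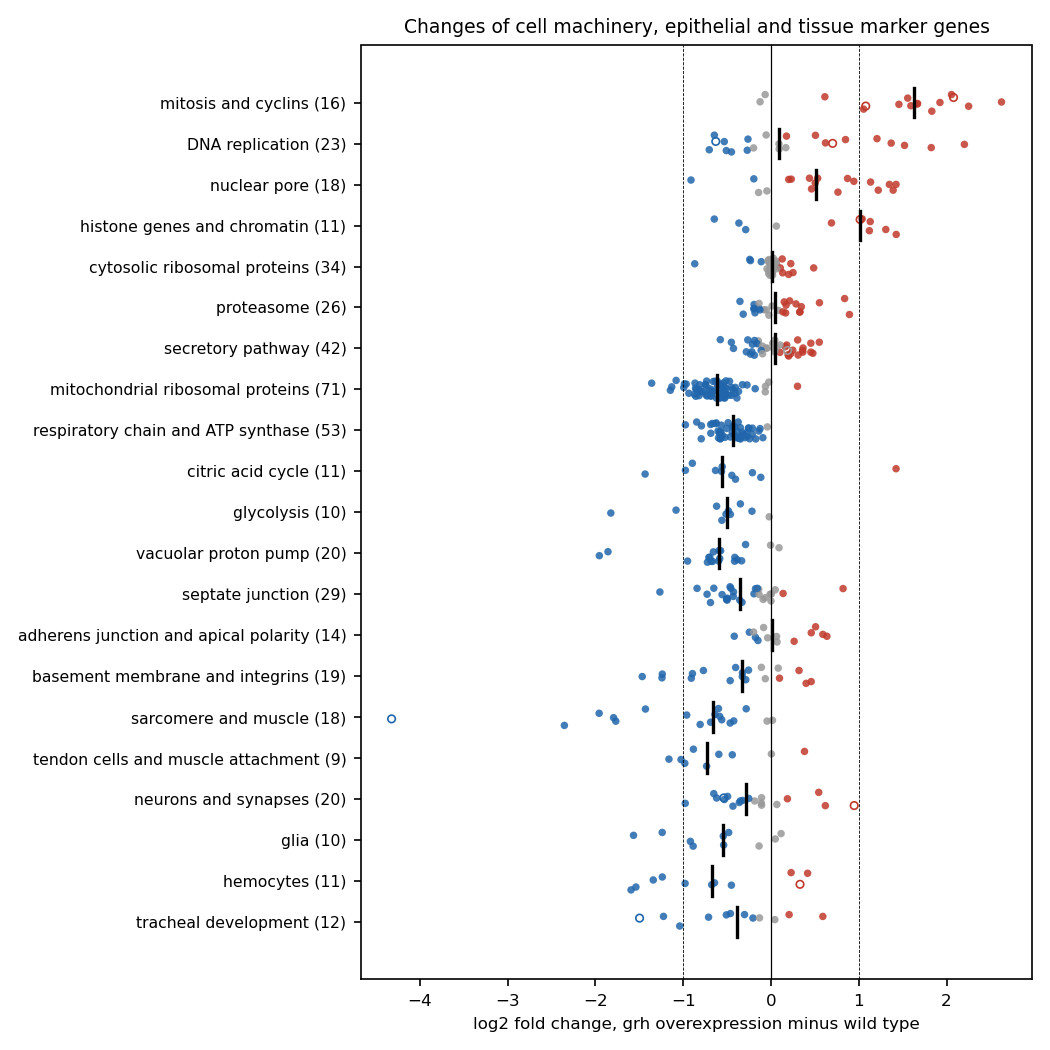
Log2 fold change, grh overexpression minus wild type, of each tested gene in 21 lists of cell machinery, epithelial and tissue marker genes, with the number tested in brackets. Red points passed the test and were higher, blue points passed and were lower, grey points did not pass, open circles mark genes dim in a group, black bars mark medians, and dashed lines mark 2-fold; mitosis genes lie to the right (median 1.63) and mitochondrial ribosomal genes to the left (median -0.61).

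Genes of cell junctions and of the basement membrane were mostly changed by less than 2-fold. Septate junctions seal insect epithelia, and of 29 tested genes 19 fell and 2 rose, with a median of -0.36. Only pasi2 passed 2-fold, with 7.94 and 7.92 in overexpression and 9.20 and 9.18 in wild type. The claudin-like genes pck and sinu fell by 0.73 and 0.65, while yrt, a polarity regulator at this junction, rose by 0.82. Adherens junction and polarity genes gave 5 higher and 4 lower of 14, and none reached 2-fold. The junction linker gene cno rose by 0.64, shg, which encodes E-cadherin, by 0.51, and baz fell by 0.42. On the basal side, 12 of 19 basement membrane and integrin genes fell and 4 rose, with a median of -0.32. The integrin gene if read 8.27 and 8.33 in overexpression and 9.78 and 9.75 in wild type, 2.76-fold lower. The perlecan gene trol was 2.36-fold lower. At least 2-fold lower were 3 genes of this list, and 1 when the probe sets of a gene were averaged.

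Of 12 tested transcription factors of the epidermis, 6 fell and 2 rose, where 44.1% of all rows fell and 36% rose. The 2 were grh and pnr, which acts in the dorsal epidermis (log2 fold change 0.59). The POU factor gene vvl read 6.60 and 6.86 in overexpression and 7.76 and 7.85 in wild type, and fell by 1.07. The Sox gene SoxN fell by 0.85. Among genes of the wound response, Gadd45, a stress gene, read 8.92 and 8.87 in overexpression and 6.33 and 6.15 in wild type, 6.32-fold higher, and grnd, a receptor that starts JNK signalling, was 4.21-fold higher. The JNK target puc, at 7.48 and 7.53 in overexpression and 7.49 and 7.37 in wild type, did not pass the test, and of the 14 tested genes of this list 6 rose and 6 fell.

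Markers of muscle, tendon and hemocytes were lower more often than higher. Of all rows, 44.1% fell, 8.27% by at least 2-fold, and 36% rose. Of 18 tested muscle genes 16 fell and none rose, 6 of them by at least 2-fold, and their mean level was 9.73 and 9.71 in overexpression arrays against 10.82 and 10.80 in wild type arrays. The troponin gene TpnC41C was dim in overexpression at 2.42 and 2.30 and read 6.68 and 6.68 in wild type, at least 6.40-fold lower. Of the sarcomere genes, Act87E was 3.46-fold, Mf 3.40-fold and Mlc2 2.69-fold lower. Tendon genes fell in 7 of 9, including sr, the determinant of tendon cells, at 2.03-fold lower. Hemocyte genes fell in 8 of 11 and rose in 3, with mean levels of 6.51 and 6.51 in overexpression and 7.19 and 7.19 in wild type, and 4 neighbouring Nimrod genes on arm 2L, NimB3, NimB4, NimB5 and NimC1, were all at least 2-fold lower. Hml, a defining hemocyte gene, was dim in both groups.

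Of 10 glial genes 7 fell and none rose, where 44.1% of all rows fell and 36% rose. Their mean levels were 7.81 and 7.84 in overexpression and 8.43 and 8.45 in wild type. wrapper, a midline glia gene, was 2.96-fold lower and repo, the glial determinant, fell by 0.48. Of 20 neuronal genes 11 fell, against 44.1% of all rows, and 4 rose, none by 2-fold, with mean levels of 6.70 and 6.73 in overexpression and 6.86 and 6.93 in wild type. The RNA-binding protein gene Rbp9 fell by 0.98, while unc-13 and the calcium channel gene cac, both of the synapse, rose by 0.62 and 0.54. futsch, a microtubule-binding protein gene, read 4.18 and 3.97 in overexpression and was dim in wild type at 3.10 and 3.16. elav, the general neuronal marker, read 6.90 and 7.12 in overexpression against 7.26 and 7.63 in wild type. Of 29 genes from families of neural surface proteins, 21 fell and 1 rose, with a median of -0.34, or 20 and 1 of 28 without the 1 fixed by the filter. Tracheal genes fell in 8 of 12 and rose in 2, with mean levels of 6.75 and 6.76 in overexpression and 7.16 and 7.21 in wild type, and with the receptor gene btl dim in overexpression at 2.66 and 2.68 and read at 4.07 and 4.26 in wild type. Fat body genes fell in 7 of 9, or 7 of 8 without the 1 fixed by the filter, and salivary gland genes in 5 of 6, where pip, a sulfotransferase gene, was 5.19-fold lower. The same shares of all rows, 44.1% lower and 36% higher, stand beside the tracheal, fat body and salivary gland counts. The part of tissue composition in the results above was not tested.

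Patterning genes differed by group. All 4 tested Hox genes and cofactors fell, with Antp at 6.42 and 6.79 in overexpression and 7.55 and 7.76 in wild type (2.07-fold lower) and Dfd 2.05-fold lower. Of 10 segmentation genes 8 fell and none rose, led by kni (2.34-fold) and ems (2.11-fold). Of 13 Hedgehog and Dpp pathway genes 7 were higher and 3 lower, with a median of 0.29. By at least 2-fold, 0 of the 13 were higher and 2 lower. Of all rows, 36% were higher and 44.1% lower. Of 3 Wnt pathway genes 2 were higher and 1 lower. Axn, among the higher ones, did not pass with each array centred on its median (limma adjusted p 0.052). Within the Hedgehog pathway, the signalling gene hh and its transcription factor ci were 2.09-fold and 2.38-fold lower, while smo and disp of the same pathway rose by 0.57 and 0.65.

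The named genes with the largest measured increases were partly without known function. CG2444 led, with 12.21 and 12.21 in overexpression and 4.48 and 4.57 in wild type, 206.2-fold higher (adjusted p 1.76e-15). Next to the enzymes and Osiris genes above stood CG14110, CG14107, CG12880 and CG5002, at 60.3-fold, 50.1-fold, 46.4-fold and 32.2-fold. Jhbp2, of a family of juvenile hormone-binding proteins, was 27.9-fold higher and its relative Jhbp4 10.4-fold. ect, a gene named for its expression in the ectoderm, read 10.02 and 9.95 against 5.30 and 5.12 in wild type, 27.4-fold higher. The largest measured fall was that of CG34276, with 4.40 and 4.44 in overexpression and 10.22 and 10.20 in wild type, 55.3-fold. Behind it came CG14453 at 38.6-fold and EAChm at 28.3-fold lower, the second reading 6.84 and 6.65 in overexpression and 11.60 and 11.54 in wild type. The heat shock gene Hsp68 was 10.8-fold lower while the small heat shock gene Hsp26, with 12.70 and 12.59 against 10.40 and 10.28 in wild type, was 4.94-fold higher. The phosphate carrier gene Mpcp1 was 9.43-fold lower. For all of these the groups did not overlap.

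Among genes dim in 1 group, CG34227 had the largest bound, at 12.13 and 12.08 in overexpression and 2.28 and 2.29 in wild type, at least 274.9-fold higher. The alkaline phosphatase gene Alp9, the P450 gene Cyp303a1, and Arr2, known as a photoreceptor arrestin, were at least 87.7-fold, 75.3-fold and 33.9-fold higher. These 4 entered the test through the overexpression arrays alone. CG32284 was also measured in grh mutant arrays, at 5.97 and 5.98, and read 9.37 and 9.35 in overexpression and 2.33 and 2.45 in wild type, at least 41.1-fold higher. On the other side, CG5402 read 3.07 and 2.91 in overexpression and 9.74 and 9.80 in wild type, at least 54.5-fold lower. The thiol reductase gene GILT3 was at least 12.7-fold lower.

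**Figure D5:**
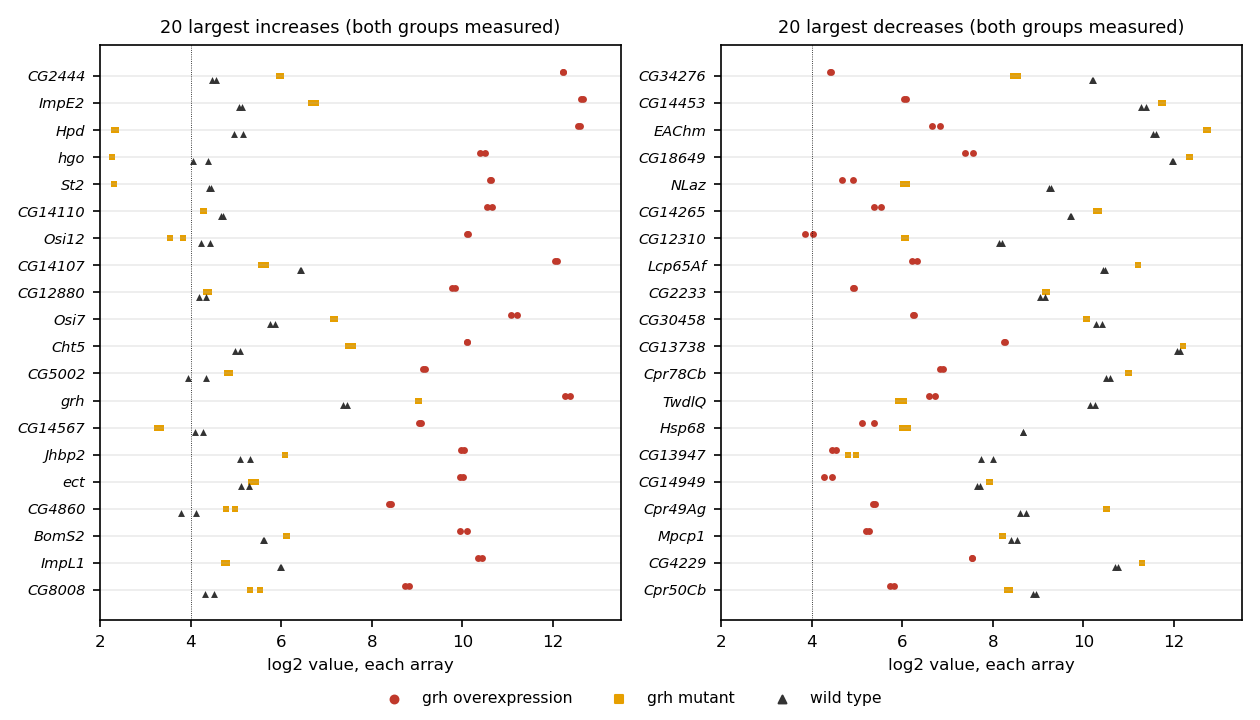
Log2 value on each array (horizontal axis) of the 20 named genes with the largest measured increases (left) and decreases (right), with red circles for grh overexpression, orange squares for grh mutant and black triangles for wild type, n = 2 arrays each; the dotted line marks the level of 4. Overexpression arrays lie far from wild type arrays in every row, and the mutant arrays fall on either side of wild type.

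The grh mutant arrays, set against the same wild type arrays, give the levels of the same genes in embryos with the allele grhB37. How much grh function these embryos kept was not measured here. Shared wild type arrays link the 2 comparisons, so values are given side by side, and the contrast of overexpression with mutant, in which 86.6% of rows passed the test, is the test of their difference. Hpd read 12.59 and 12.56 in overexpression, 2.36 and 2.32 in mutant, and 4.96 and 5.15 in wild type, and hgo lay at the floor in the mutant. Both genes were dim in the mutant, so overexpression exceeded the mutant by at least 381.9-fold for Hpd (adjusted p 1.02e-15) and at least 86.9-fold for hgo (adjusted p 2.41e-14). CycB read 10.87 and 10.91 in overexpression, 5.33 and 5.42 in mutant, and 9.02 and 8.91 in wild type, so its wild type level lay between the others. The same order held for pim, with 3.90 and 3.79 in mutant arrays, for bcd, with 2.53 and 2.41, and for yellow-d2, with 2.50 and 2.50. For the whole mitosis list, 10 of 16 genes were at least 2-fold lower and none at least 2-fold higher in mutant, and of the tyrosine list 6 of 7 were at least 2-fold lower, against 7.06% of all rows.

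Other genes did not keep that order. Cht5 read 10.09 and 10.10 in overexpression, 7.48 and 7.58 in mutant, and 5.09 and 4.97 in wild type, higher in both altered genotypes, with overexpression above mutant by 2.57 (adjusted p 4.78e-12). Mal-A3 was likewise high in mutant, at 10.31 and 10.29, and so was Prx6c, at 12.68 and 12.75, which lay above its overexpression level (difference -0.76, adjusted p 2.17e-06). NLaz read 4.92 and 4.68 in overexpression, 6.11 and 6.01 in mutant, and 9.29 and 9.23 in wild type, and TwdlQ read 6.03 and 5.91 in mutant, so both genes were lower in both altered genotypes. Mitochondrial ribosomal genes were also mostly lower in the mutant, 53 lower and 8 higher of 71, with a median of -0.51 there and -0.61 in overexpression. By at least 2-fold, 1 of the 71 was lower in the mutant, against 7.06% of all rows. Of all rows, 80.9% passed the test in the mutant against wild type, and how many of these were lower was not counted. Some genes that changed widely in overexpression lay nearer wild type in the mutant, though they passed the test there too: CG14453 read 11.75 and 11.72 in mutant arrays, higher than wild type by 0.41 (adjusted p 8.95e-06), and Osi12 read 3.84 and 3.54 in mutant arrays, against 4.22 and 4.42 in wild type arrays (adjusted p 0.00013). Of the 15 tested Osiris genes 8 were higher and 3 lower in the mutant, 1 of them at least 2-fold higher, against 10.8% of all rows.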

How the data were processed

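RNA from stage 16 embryos was hybridised to 6 one-colour Affymetrix arrays. The deposited log2 value of each probe set was used as given; per the submitters' processing notes GCRMA and MAS5 were used, with role, order and genome build not given in the sources used here. Of 18769 probe sets other than controls, 13647 had 1 gene symbol (13544 updated through RefSeq identifiers), 402 had several and 4720 none. Genes were read by the probe set with the highest mean. The 3 genotypes were fitted together in limma 3.58.1 under R 4.3.3 on the 8632 rows that passed the filter, with Benjamini-Hochberg adjusted p-values and a threshold of 0.05. The fit had 3 residual degrees of freedom. The fitting was tested on simulated data. By rule the text names grh, Ddc, ple, kkv, vvl, the 20 largest increases and 20 largest decreases measured in both groups, the 10 largest bounds each way, the 2 to 6 called members of a list with the largest change, and members of neighbouring runs; other members it names were chosen after their values were seen. The members and lists were chosen with earlier results of these data known, and 38 list entries were taken out after values were seen. Their direction is called fixed where a row passed the filter through the arrays of 1 genotype alone. Alternatives changed the filter, scaling, probe set rule, test and arrays used. A planned search of promoters for motifs was not run, since no promoter sequence was used here. The number of arrays limits precision.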

Additional observations from a re-analysis of the deposited data

How the results depend on the processing

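Across the 16 alternatives, values of named genes kept their direction and their side of the threshold in 8201 of 8372 cases. These genes were picked mostly for large called changes in the same arrays, so much of this stability follows from the choice. In 169 cases the call was lost, 122 of them under a limma test against a 1.5-fold change; under the other alternatives 17 genes lost a call or turned. Of 2368 list counts, 64 moved by over 1.5 times: 13 with a log2 minimum of 6, 9 with arrays centred, 5 with quantile normalization, 5 with probe sets averaged, 3 with no filter, 10 and 6 without overexpression replicates 1 and 2, and 7 and 6 without wild type replicates 1 and 2. With a minimum of 6, cytochrome P450 genes at least 2-fold higher numbered 10, against 16. For 2 genes the direction turned when the probe sets of a gene were averaged: ftz-f1 then had a log2 fold change of 0.275 and H of 0.225, and the cause was not tested. The 1.5-fold test called 2680 rows, 1487 higher and 1193 lower in overexpression, and 4091 rows between overexpression and mutant; this test asks for a larger change by construction. With a log2 minimum of 6 on 2 arrays, which tests fewer genes, 9 runs of neighbouring genes were found, against 18. Leaving out each array in turn gave 6313 to 6806 rows called and 1846 to 1878 called and at least 2-fold changed. Where this left a group with 1 array, that array was assumed to vary like the other groups. The labels number replicates alike in each group without saying that a number marks a shared collection. Deviations of same-numbered arrays from their group means correlated at 0.245 between overexpression and wild type, 0.136 between overexpression and mutant, and 0.165 between mutant and wild type, over 2 pairs each. With a replicate block, 7127 rows were called, 3185 higher and 3942 lower, and 1846 were called and at least 2-fold changed.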

Other observations

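Of 12 tested heat shock genes, 7 were lower and 4 higher in overexpression embryos, where 44.1% of all rows were lower and 36% higher. By at least 2-fold, 4 fell, against 8.27% of all rows. Of 26 tested tetraspanins, membrane organisers, 16 were lower and 8 higher, with Tsp47F 12.3-fold higher and Tsp74F 3.60-fold lower. Among 22 UDP-glycosyltransferases, which attach sugars to small molecules, 10 were higher and 8 lower, or 9 and 8 of 21 without the 1 fixed by the filter. In the apoptosis list of 8 tested genes, 4 were higher and 3 lower, and Dronc, the initiator caspase gene, rose by 1.53. EGF receptor pathway genes gave 4 higher and 5 lower of 10, with Cbl, which takes receptors out of action, higher by 1.45 and edl, which limits the ETS factors of the pathway, at -1.23. Of 13 tested epithelial channel genes 8 were lower and 3 higher.

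The share of tested genes at least 2-fold higher in overexpression was 16.1% on chromosome arm 3R, 14% on 2R, 12.3% on 3L, 11.8% on 2L, 11.2% on X and 8.47% on chromosome 4. The share at least 2-fold lower was 8.73% on 3R, 8.07% on 2R, 11.2% on 3L, 7.8% on 2L, 6.42% on X and 15.3% on chromosome 4, where 59 genes were tested.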
